A study of Mus musculus with 12 samples.

Results

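Ligands and receptors of the axon guidance families were followed across cultured mouse cells from kidney, heart and bone marrow. The set holds every probe whose annotated symbol begins with Sema, Plxn, Nrp, Epha, Ephb, Efna, Efnb, Robo, Ntn or Unc5, or is Slit1, Slit2 or Slit3, and that was detected (a detection fraction above 0.95) on at least 4 of 12 arrays. These criteria kept 78 of 178 matching probes, which carry 44 of 69 matching genes, out of 20649 kept probes and 10797 named genes on the arrays. Symbols chose the genes and detection chose the probes, and a probe detected in a single tissue could pass, so some were kept through the tissue where they are bright. Of the 44 kept genes, 43 belong to guidance families and 1, annotated Nrp, shares only its letters with the neuropilins. Total RNA from each tissue's cells was hybridised to single-colour Illumina bead arrays, with 4 arrays each for cells derived from kidney and from heart that the labels describe as resembling mesenchymal stem cells, and for mesenchymal stem cells of bone marrow. The series design text calls the 4 cultures of a tissue biological replicates and names no animals, litters or days. The sources used here give no strain, age, sex, passage or sorting of the cells, and no agent or allele is named for any group.

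Guidance cues are secreted or membrane-bound proteins that attract or repel growing axons and also steer migrating cells and vessel sprouts. Semaphorins act through plexins, the secreted ones mostly with a neuropilin as co-receptor, while Slits bind Robo receptors and netrins bind Dcc, neogenin and Unc5 receptors. Ephrins of the A kind are anchored by a lipid and those of the B kind span the membrane, and both bind Eph receptor tyrosine kinases on neighbouring cells. Outside the nervous system, Slit and Robo genes shape the outgrowth of the kidney's collecting system, and semaphorin and plexin genes shape the outflow tract of the heart.

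The promoters of 4 ligand genes are shown because their transcripts form opposite pairs in the values that follow. Slit2 and Slit3 were brightest in heart cells, and Sema7a and Ntn4 were brightest in kidney cells and dimmest in heart cells. Each sequence holds the 250 bases before the gene's start, from RefSeq on build GRCm38.p6, 5′ to 3′ on the plus strand, which is the strand of all 4 genes. Capitals mark matches on either strand to the GC box, which reads GGGCGG, the CCAAT box, which is spelled by its name, or the TATA box, which reads TATAAA. Adjoining or overlapping matches run together.
Slit2: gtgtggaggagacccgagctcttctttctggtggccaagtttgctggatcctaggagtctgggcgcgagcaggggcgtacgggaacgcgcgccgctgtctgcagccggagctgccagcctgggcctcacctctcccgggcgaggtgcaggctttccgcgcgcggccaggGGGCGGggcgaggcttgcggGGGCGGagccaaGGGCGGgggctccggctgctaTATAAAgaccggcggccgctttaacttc
Slit3: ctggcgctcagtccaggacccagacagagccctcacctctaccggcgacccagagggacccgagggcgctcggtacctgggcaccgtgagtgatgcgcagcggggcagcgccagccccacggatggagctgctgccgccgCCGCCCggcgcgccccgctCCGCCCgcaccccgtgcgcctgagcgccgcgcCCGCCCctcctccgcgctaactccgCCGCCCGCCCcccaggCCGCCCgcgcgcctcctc
Sema7a: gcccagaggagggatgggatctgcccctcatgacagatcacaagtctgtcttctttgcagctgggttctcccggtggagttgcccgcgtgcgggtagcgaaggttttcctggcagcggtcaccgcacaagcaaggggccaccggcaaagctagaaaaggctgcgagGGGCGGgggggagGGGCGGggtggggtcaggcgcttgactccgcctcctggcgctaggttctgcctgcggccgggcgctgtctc
Ntn4: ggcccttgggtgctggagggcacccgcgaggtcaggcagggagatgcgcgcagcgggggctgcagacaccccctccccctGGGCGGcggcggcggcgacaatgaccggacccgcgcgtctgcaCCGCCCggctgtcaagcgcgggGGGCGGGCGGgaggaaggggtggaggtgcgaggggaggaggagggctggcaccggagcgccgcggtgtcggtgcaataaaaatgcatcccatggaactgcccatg
They lie at chr5:47982905-47983154 for Slit2, chr11:35121206-35121455 for Slit3, chr9:57939862-57940111 for Sema7a and chr10:93640799-93641048 for Ntn4. The Slit2 promoter held 3 GC boxes and 1 TATA box at 69.6% GC, and the Slit3 promoter held 6 GC boxes at 78.8% GC. In Sema7a there were 2 GC boxes at 66.4% GC, and in Ntn4 there were 4 at 73.2% GC. None of these windows held the CCAAT box in either orientation. Of 32851 mouse promoters of the same length, 32.7% held the GC box, 33.8% the CCAAT box and 12.4% the TATA box, and the median GC content was 52.4%. Of the 44 kept genes, 39 had a promoter in the table, and 30, 12 and 2 of these held the GC, CCAAT and TATA box in any of their listed promoters. The shares above count single promoters, of genes detected here or not. The counts of kept genes are therefore not comparable with them and are no sign of an excess. A match describes letters in the window and no binding of a factor.

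Intensities are given as log2 of the background-corrected, quantile-normalised intensity, on the array replicates 1 to 4 in turn, and differences between tissues as log2 difference ± SE from 1 limma fit, with p adjusted over all kept probes. Levels of different genes come from different probes and are not set against each other. The detection floor, the lowest signal of a detected probe, averaged 5.62 on this scale over the arrays. Between 18635 and 19792 probes were detected per array. Of the 178 matching probes, kept or not, 57 to 64 were detected on kidney arrays, 69 to 77 on heart arrays and 57 to 62 on bone marrow arrays. Mean raw intensity was 1004 to 1049 on kidney arrays, 934.6 to 1066 on heart arrays and 753.7 to 949.9 on bone marrow arrays. Bone marrow replicate 1 had the lowest mean and stood slightly apart: its correlation with the other bone marrow arrays was 0.983 to 0.986, against 0.992 to 0.994 for all other pairs within a tissue. Results that change without it are given with and without it. All 11 mesenchymal markers with a probe, among them Pdgfra, Pdgfrb and Col1a1, were detected on every array of the 3 tissues, though at unlike levels. The list's summed raw intensity was 103486 to 108827 on kidney, 120466 to 147963 on heart and 67594 to 98700 on bone marrow arrays. Its part in the results was not tested. Of 11 neuron and glia markers, 0 were detected on all kidney arrays, 2 (Stmn2 and Mbp) on all heart arrays and 0 on all bone marrow arrays, and Snap25, Elavl4, Sox10, S100b and Prph were detected on 0 of 12. Their summed raw intensity was 1476 to 1569 on kidney arrays, 1776 to 1923 on heart arrays and 1348 to 1491 on bone marrow arrays, and its part in the heart results that follow was not tested. Of 10 endothelial markers, 2 (Emcn and Egfl7) were detected on all kidney arrays, 2 (Esam and Egfl7) on all heart arrays and 1 (Egfl7) on all bone marrow arrays, and Kdr, Vwf and Cldn5 on 0 of 12. Emcn was at least 7.96-fold higher in kidney than in bone marrow cells, and the list's summed raw intensity was 2105 to 2255 on kidney, 2069 to 2152 on heart and 1639 to 1931 on bone marrow arrays. Of 9 macrophage markers, Csf1r, Lyz2 and Cd14 were detected on all 12 arrays and the other 6, Ptprc, Itgam and Adgre1 among them, on 0, with summed raw intensities of 1570 to 1610 on kidney, 1930 to 2046 on heart and 1585 to 1982 on bone marrow arrays. Of 9 epithelial markers, Krt8 and Krt19 were detected on all 12 arrays, Lrp2 on all kidney and heart arrays and 0 bone marrow arrays, and Epcam, Krt18, Cldn4 and Pax8 on 0 of 12. Cdh1 was detected on all kidney and bone marrow arrays and, by its brightest probe, on 3 of 4 heart arrays. Umod was detected on some kidney arrays and on 0 heart and 0 bone marrow arrays. The epithelial sums were 1648 to 1733 on kidney, 1414 to 1524 on heart and 1223 to 1307 on bone marrow arrays. The part of these 3 lists in the results was not tested either. In RNA from whole cultures, fewer cells that express a gene and less of its RNA per cell cannot be told apart.

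Of 69 matching genes, 25 had a probe detected on all 12 arrays, 16 were detected on 0 arrays by every probe, and the remaining 9 of the 25 genes left out reached at most 3 arrays. The families differed in how many members were detected. Family totals count only genes with a matching probe, so members without one, Ntn1 and Ephb2 among them, could not be read. All 3 netrins with a probe (Ntn3, Ntn4 and Ntn5), all 3 ephrin-B ligands and both neuropilins were kept. So were 9 of 12 membrane-bound and 4 of 7 secreted semaphorins, 5 of 9 plexins and 6 of 9 EphA receptors. Fewer passed among EphB receptors, where Ephb4 alone of 4 was kept, and 2 of 4 Unc5 receptors, 2 of 3 Robo receptors and 2 of 3 Slits were kept. Just inside the criterion were 10 probes detected on exactly 4 arrays, among them those that stand for Epha7 and Sema6a, each detected on the 4 heart arrays and on no other. Epha7 had a mean raw intensity of 130.3 in kidney, 198.8 in heart and 113.4 in bone marrow cells. Just outside were 3 probes detected on 3 arrays, of which one for Plxnd1 had a mean raw intensity of 142.7 in kidney, 141.8 in heart and 167.7 in bone marrow cells. In all, 8 genes would not have passed without the arrays of their most often detecting tissue: Robo4 and Sema3e (kidney), Epha7, Sema6a and Sema6b (heart), and Epha4, Ntn5 and Plxnb1 (bone marrow). The criterion favours a higher reading of such a gene in that tissue, so its differences are a description, and the counts that follow describe the kept genes and are no evidence about the families.

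Guidance genes differed among the 3 tissues in both directions, and several families held members that were higher in a tissue beside members that were lower there. In heart cells against bone marrow cells, 18 of 44 genes were higher (40.9%) and 10 lower (22.7%) at an adjusted p under 0.05, beside 26.2% and 29.4% of all 10797 genes. In kidney cells against bone marrow cells, 13 were higher (29.5%) and 9 lower (20.5%), beside 19.6% and 23.8% of all genes. In kidney cells against heart cells, 10 were higher (22.7%) and 13 lower (29.5%), beside 24.5% and 23.9% of all genes. Among the 25 genes detected on all arrays, 12 were higher and 9 lower in heart than in bone marrow cells, 9 higher and 7 lower in kidney than in bone marrow cells, and 9 higher and 10 lower in kidney than in heart cells. No share over all genes detected on every array is given, so these counts stand without a background and are no sign of an excess. The median absolute difference of the 44 genes was 0.60 log2 units for heart minus bone marrow, 0.43 for kidney minus bone marrow and 0.46 for kidney minus heart, against 0.35, 0.27 and 0.29 over all genes. The signed medians lay near 0, at 0.08, 0.12 and 0.03 for the members in the same order and −0.03, −0.04 and 0.02 over all genes. Of the 44 genes, 17 (38.6%) had their highest mean in kidney cells, 17 (38.6%) in heart cells and 10 (22.7%) in bone marrow cells, beside 27.7%, 33.8% and 38.5% of all genes. Among the 25 kept ligands, 11 were higher and 5 lower in heart than in bone marrow cells, 8 higher and 5 lower in kidney than in bone marrow cells, and 4 higher and 10 lower in kidney than in heart cells. Among the 18 kept receptors the same counts were 7 and 4, 5 and 4, and 5 and 3. The heart and kidney comparisons with bone marrow share the 4 bone marrow arrays, so they are set side by side and not counted as separate evidence. Without bone marrow replicate 1 the counts were 17 and 11 for heart minus bone marrow, 13 and 11 for kidney minus bone marrow, and 10 and 14 for kidney minus heart, higher given before lower.

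**Figure D1:**
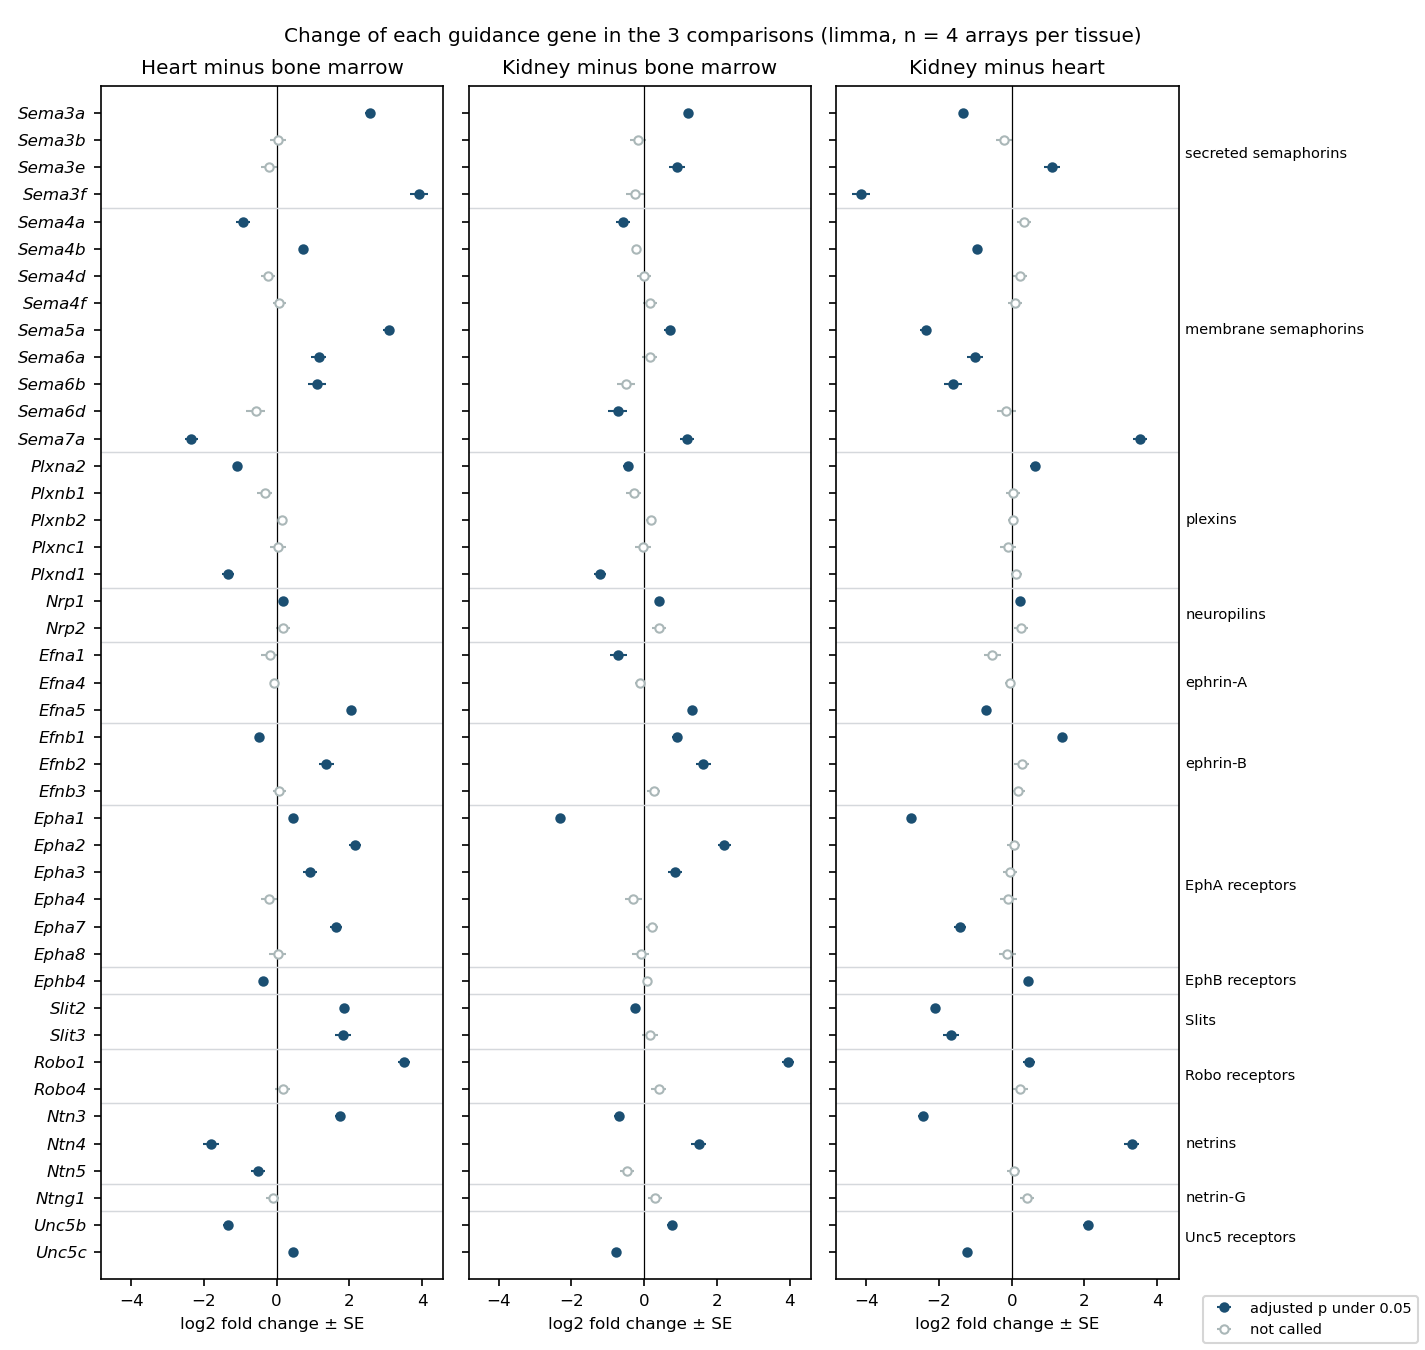
Log2 fold change ± SE of each of the 43 guidance genes, by family, for heart over bone marrow, kidney over bone marrow and kidney over heart (4 arrays per tissue), as fitted, also where the text gives a bound. Filled points have an adjusted p under 0.05. Sema3f, Robo1, Sema7a and Ntn4 lie farthest from 0, and within the secreted semaphorins, netrins and Unc5 receptors points lie on both sides of 0.

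At a fold change of at least 2, 13 of 44 genes (29.5%) were higher and 5 (11.4%) lower in heart than in bone marrow cells, beside 8.41% and 5.59% of all genes. Where the dimmer tissue lay at the detection floor the fold change is given below as a lower bound, and with bounds in place of fitted values the higher count is 11. For kidney against bone marrow cells, 7 genes were at least 2-fold higher and 2 lower, beside 4.9% and 3.56% of all genes. For kidney against heart cells, 5 were at least 2-fold higher and 11 lower (4 and 9 with bounds), beside 3.86% and 6.96% of all genes. Over all 3 tissues the F test called 31 of 44 genes (70.5%), beside 67.9% of all genes. Called genes whose arrays did not overlap numbered 26 (59.1%) in heart against bone marrow cells, 18 (40.9%) in kidney against bone marrow cells and 23 (52.3%) in kidney against heart cells, beside 48.3%, 35.6% and 43.4% of all genes.

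The largest difference of any ligand in the set was that of Sema3f, a secreted semaphorin. Sema3a, a repellent of axons and of migrating cells that acts through neuropilin-1 and A-type plexins, was 5.88-fold higher in heart and 2.32-fold higher in kidney than in bone marrow cells. Sema3f, a ligand of neuropilin-2, was 15.1-fold higher in heart than in bone marrow cells. Sema3e, which binds plexin-D1 without a neuropilin, was detected on 4 kidney arrays, 0 heart arrays and 1 bone marrow array. For Sema3a the log2 intensities were 9.97, 9.97, 10.24 and 10.05 on kidney arrays, 11.49, 11.18, 11.25 and 11.66 on heart arrays and 9.22, 8.67, 8.74 and 8.73 on bone marrow arrays. The 3 tissues formed separate ranges, with heart minus bone marrow at 2.56 ± 0.12 (adjusted p = 4.02e-13), kidney minus bone marrow at 1.22 ± 0.12 (adjusted p = 9.37e-08) and kidney minus heart at −1.34 ± 0.12 (adjusted p = 1.7e-08). Sema3f read 7.49, 7.80, 7.57 and 7.43 in kidney cells, 11.52, 11.90, 11.98 and 11.50 in heart cells and 6.69, 7.86, 8.18 and 8.52 in bone marrow cells. All heart arrays lay far above the other 8, and bone marrow replicate 1 lay below the rest of its tissue. Heart minus bone marrow was 3.91 ± 0.25 (adjusted p = 3.05e-11) and kidney minus heart −4.15 ± 0.25 (adjusted p = 1.69e-11). Kidney minus bone marrow was −0.24 ± 0.25 (adjusted p = 0.476), and without bone marrow replicate 1 it was −0.61 with an adjusted p of 0.000967. Sema3e had values of 6.04, 6.52, 6.03 and 6.87 in kidney cells, against 4.95, 5.27, 5.35 and 5.45 in heart and 5.92, 5.23, 5.50 and 5.17 in bone marrow cells. All kidney arrays lay above the other 8. Sema3e was at least 1.56-fold higher in kidney than in bone marrow cells and at least 1.69-fold higher in kidney than in heart cells. It passed detection only with the kidney arrays, so these bounds are a description without a test. Sema3b was not called on its brightest probe in any comparison.

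**Figure D2:**
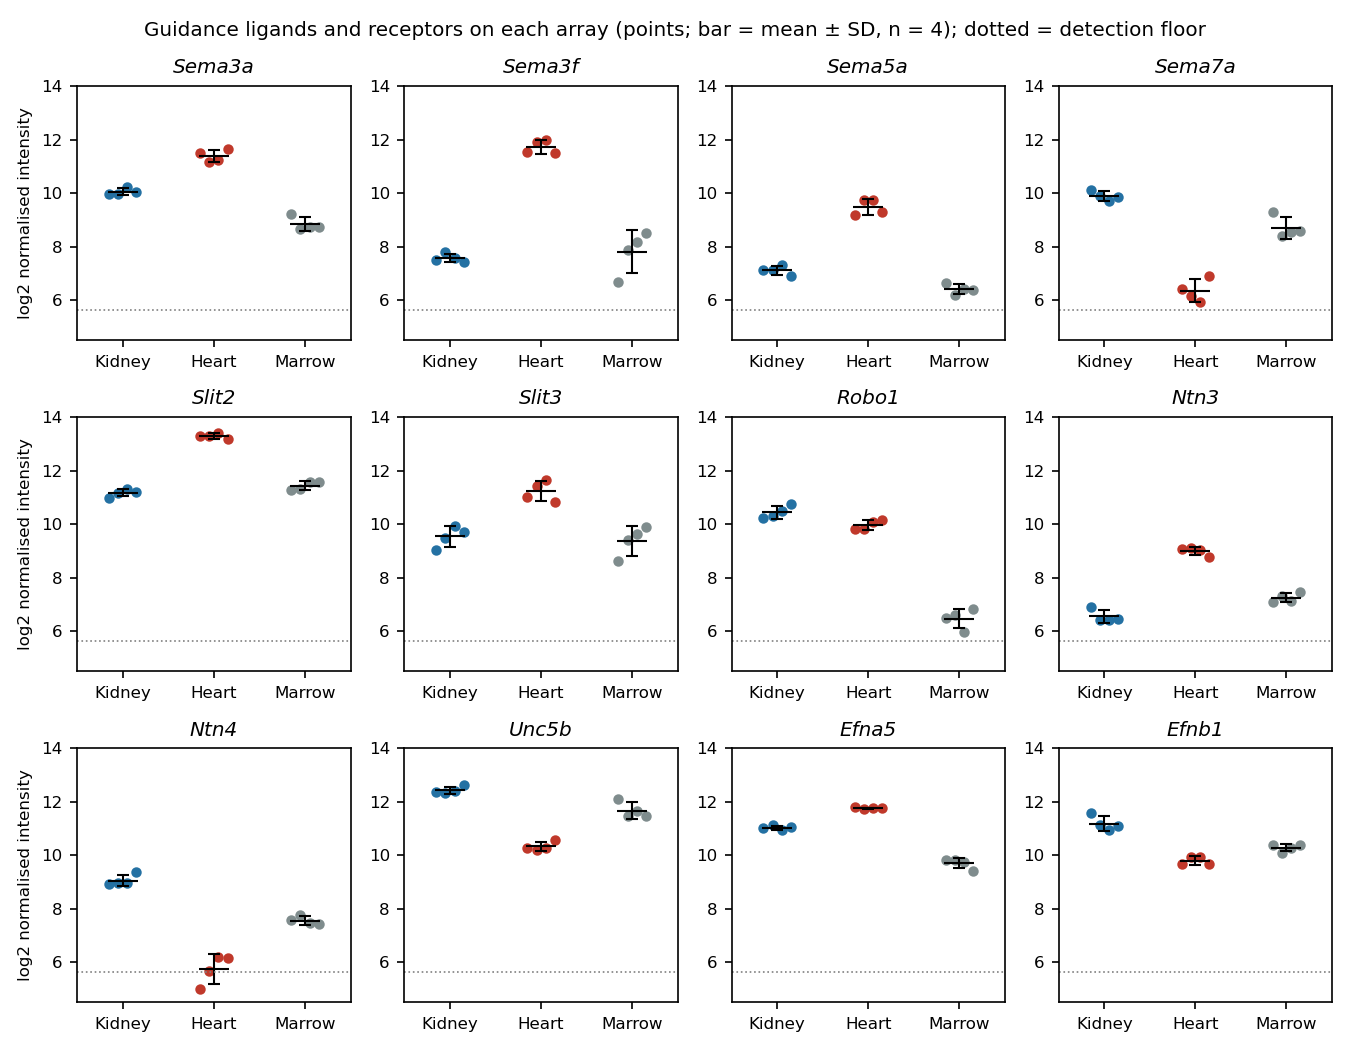
Log2 normalised intensity of 12 guidance genes on each array (points), with the mean ± SD of 4 arrays per tissue and the mean detection floor as a dotted line. Sema3f, Slit2, Slit3 and Ntn3 sit highest in heart cells, Sema7a, Ntn4, Unc5b and Efnb1 sit highest in kidney cells, and Robo1 sits lowest in bone marrow cells.

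Among membrane-bound semaphorins, Sema5a and Sema7a moved in opposite ways. Sema5a, a thrombospondin-repeat semaphorin that can attract or repel axons, was 8.44-fold higher in heart than in bone marrow cells. Sema7a, the lipid-anchored semaphorin that signals through integrins and plexin-C1, was 5.07-fold lower in heart and 2.27-fold higher in kidney than in bone marrow cells. On its brightest probe Sema5a read 7.13, 7.14, 7.32 and 6.90 in kidney, 9.17, 9.75, 9.75 and 9.30 in heart and 6.64, 6.19, 6.42 and 6.39 in bone marrow cells. None of the 3 ranges overlapped, and the differences were 3.08 ± 0.15 (adjusted p = 6.84e-13) for heart minus bone marrow, 0.71 ± 0.15 (adjusted p = 0.000965) for kidney minus bone marrow and −2.37 ± 0.15 (adjusted p = 7.11e-11) for kidney minus heart. The Sema7a values were 10.12, 9.89, 9.69 and 9.84 in kidney cells, 6.42, 6.17, 5.94 and 6.91 in heart cells and 9.29, 8.40, 8.54 and 8.58 in bone marrow cells. Again the ranges were separate, now with kidney cells highest and heart cells lowest, and the differences were −2.34 ± 0.19 (adjusted p = 1.75e-09), 1.19 ± 0.19 (adjusted p = 4.15e-05) and 3.53 ± 0.19 (adjusted p = 3.91e-12) for heart over bone marrow, kidney over bone marrow and kidney over heart.

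Of the class 4 and class 6 semaphorins, Sema4b, Sema6a and Sema6b were higher in heart than in bone marrow cells and Sema4a was lower. Sema4b had values of 10.10, 10.23, 10.33 and 10.31 in kidney, 11.14, 11.28, 11.25 and 11.10 in heart and 10.42, 10.23, 10.63 and 10.54 in bone marrow cells. Heart cells lay above both other tissues, by 0.74 ± 0.09 (adjusted p = 9.64e-07) over bone marrow cells, and kidney minus heart was −0.95 ± 0.09 (adjusted p = 3.66e-08). Kidney minus bone marrow was −0.21 ± 0.09 (adjusted p = 0.0761), or −0.29 (adjusted p = 0.0192) without bone marrow replicate 2. Sema4a, which immune and endothelial cells are also known to use, read 6.70, 6.58, 7.06 and 6.75 in kidney, 6.86, 6.58, 6.18 and 6.15 in heart and 7.63, 7.25, 7.58 and 7.01 in bone marrow cells. It was lower in heart than in bone marrow cells, at −0.92 ± 0.19 (adjusted p = 0.000268), and kidney minus bone marrow was −0.59 ± 0.19 (adjusted p = 0.0148), where the arrays overlapped and the adjusted p was 0.0509 without bone marrow replicate 3. Sema6a, a transmembrane ligand of A-type plexins, had 5.20, 5.44, 4.91 and 4.87 on kidney arrays, 5.99, 6.55, 6.12 and 5.81 on heart arrays and 4.80, 5.34, 4.70 and 4.98 on bone marrow arrays. As heart arrays alone detected it, the difference is a bound, at least 1.37-fold higher in heart than in bone marrow cells and at least 1.44-fold lower in kidney than in heart cells, and the detection criterion leaves it without a test. Sema6b, of the same class, had values of 5.16, 5.51, 5.14 and 5.68 in kidney, 7.16, 6.96, 6.67 and 7.16 in heart and 5.38, 6.84, 5.52 and 5.74 in bone marrow cells. Sema6b passed detection only with the heart arrays, so its differences from heart cells are described without a test. Kidney cells were at least 2.59-fold lower than heart cells. Heart minus bone marrow was 1.12 ± 0.25, with 1 high bone marrow array inside the heart range. For Sema6b the difference between kidney and bone marrow cells was not called (adjusted p = 0.125, or 0.033 and lower in kidney without bone marrow replicate 1). Sema6d was lower in kidney than in bone marrow cells, at −0.72 ± 0.26 (adjusted p = 0.0305), a call lost on leaving out any of 5 single arrays (bone marrow replicates 2, 3 and 4, kidney replicates 3 and 4), with adjusted p up to 0.128. Heart minus bone marrow was −0.57 ± 0.26 (adjusted p = 0.0714) for Sema6d, with adjusted p of 0.00265 without bone marrow replicate 1 and 0.0453 without heart replicate 2. Sema4d and Sema4f were not called on their brightest probes.

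Both kept Slits were highest in heart cells. These large secreted proteins repel axons and migrating cells through Robo receptors. Slit2 was 3.62-fold and Slit3 3.59-fold higher in heart than in bone marrow cells. Slit2 log2 intensities were 10.99, 11.17, 11.32 and 11.20 in kidney, 13.29, 13.28, 13.42 and 13.17 in heart and 11.27, 11.33, 11.59 and 11.56 in bone marrow cells. Heart arrays stood clear of all others, with heart minus bone marrow at 1.86 ± 0.09 (adjusted p = 3.25e-13) and kidney minus heart at −2.12 ± 0.09 (adjusted p = 5.99e-14), while kidney minus bone marrow was −0.26 ± 0.09 (adjusted p = 0.0228) with overlapping arrays. That last call was lost without bone marrow replicate 3 or 4 or kidney replicate 1, at −0.20 to −0.22 with adjusted p of 0.0719 to 0.0888. Slit3 had 9.03, 9.48, 9.94 and 9.72 in kidney cells, 11, 11.44, 11.63 and 10.82 in heart cells and 8.61, 9.39, 9.63 and 9.89 in bone marrow cells. Its heart range was also separate, at 1.84 ± 0.22 (adjusted p = 5.97e-07) for heart minus bone marrow and −1.68 ± 0.22 (adjusted p = 2.87e-06) for kidney minus heart, and kidney minus bone marrow was 0.16 ± 0.22 (adjusted p = 0.613). Slit1 was not kept.

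Their receptor Robo1 followed another order, low in bone marrow cells and high in both other tissues. Values were 10.21, 10.32, 10.48 and 10.74 on kidney arrays, 9.82, 9.80, 10.08 and 10.17 on heart arrays and 6.50, 6.59, 5.96 and 6.83 on bone marrow arrays. Robo1 was thus 11.3-fold higher in heart and 15.6-fold higher in kidney than in bone marrow cells, at 3.50 ± 0.16 (adjusted p = 9.76e-14) and 3.96 ± 0.16 (adjusted p = 2.37e-14) on the log2 scale, and kidney minus heart was 0.47 ± 0.16 (adjusted p = 0.019). The small step between kidney and heart was not called without heart replicate 1, heart replicate 2 or kidney replicate 4, at 0.37 to 0.42 with adjusted p of 0.0617 to 0.0862. A further Robo1 probe gave a much smaller contrast, 0.23 for heart minus bone marrow, which was not called, and 0.47 for kidney minus bone marrow (adjusted p = 0.0302). Robo4, known from endothelium, was detected on at most 3 of 4 arrays of any tissue and was not called. Kidney minus bone marrow was called without kidney replicate 2, but Robo4 passed detection only with the kidney arrays, so this is a description. Robo2, the main Slit receptor of the early kidney, was not kept.

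Netrins 3 and 4 had opposite profiles. Ntn3 was 3.34-fold higher in heart than in bone marrow cells, and Ntn4, a netrin of basement membranes that binds laminin, was 3.47-fold lower in heart and 2.83-fold higher in kidney than in bone marrow cells. For Ntn3 the values were 6.91, 6.43, 6.42 and 6.46 in kidney, 9.06, 9.11, 9.02 and 8.78 in heart and 7.09, 7.33, 7.13 and 7.46 in bone marrow cells. The 3 tissues did not overlap, with kidney cells lowest, and the differences were 1.74 ± 0.14 (adjusted p = 1.94e-09) for heart minus bone marrow, −0.70 ± 0.14 (adjusted p = 0.000543) for kidney minus bone marrow and −2.44 ± 0.14 (adjusted p = 1.4e-11) for kidney minus heart. Ntn4 read 8.92, 8.96, 8.95 and 9.37 in kidney cells, 4.99, 5.68, 6.19 and 6.15 in heart cells and 7.56, 7.78, 7.45 and 7.41 in bone marrow cells. Kidney cells lay above and heart cells below both other tissues, and 1 of 4 heart arrays fell short of detection. The differences were −1.80 ± 0.21 (adjusted p = 2.6e-07) for heart minus bone marrow, 1.50 ± 0.21 (adjusted p = 5.38e-06) for kidney minus bone marrow and 3.30 ± 0.21 (adjusted p = 3.53e-11) for kidney minus heart. Ntn5 had 5.65, 5.70, 5.08 and 5.48 in kidney, 5.71, 5.37, 5.41 and 5.21 in heart and 5.95, 5.92, 5.74 and 6.16 in bone marrow cells. Bone marrow arrays alone detected it throughout, and all of them lay above the other 8. Ntn5 passed detection only with the bone marrow arrays, so its differences from that tissue are a description. It was lower in heart than in bone marrow cells, by a bound of at least 1.25-fold. Leaving out bone marrow replicate 4 or heart replicate 2, 3 or 4 ended the call of that difference. Kidney cells were at least 1.24-fold lower in Ntn5 than bone marrow cells, which was not called, except without kidney replicate 2. Ntng1, a lipid-anchored netrin relative, was not called, although kidney minus heart reached an adjusted p of 0.0484 without kidney replicate 4.

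The Unc5 receptors of netrins also had unlike profiles. Unc5b and Unc5c are repulsive netrin receptors, and Unc5b is also known from vessels. Unc5b was 2.52-fold lower in heart than in bone marrow cells and highest in kidney cells, whereas Unc5c was lowest in kidney cells. Unc5b had 12.36, 12.32, 12.38 and 12.62 on kidney arrays, 10.28, 10.20, 10.27 and 10.57 on heart arrays and 12.10, 11.46, 11.65 and 11.45 on bone marrow arrays. Its ranges were separate, and the differences were −1.34 ± 0.12 (adjusted p = 6.83e-09) for heart minus bone marrow, 0.76 ± 0.12 (adjusted p = 3.2e-05) for kidney minus bone marrow and 2.09 ± 0.12 (adjusted p = 8.84e-12) for kidney minus heart. Unc5c read 7.95, 8.21, 8.09 and 8.24 in kidney, 9.45, 9.21, 9.33 and 9.42 in heart and 8.85, 8.85, 8.93 and 8.95 in bone marrow cells. Here heart cells were highest and the ranges were again separate, at 0.45 ± 0.10 (adjusted p = 0.000895), −0.77 ± 0.10 (adjusted p = 3.95e-06) and −1.23 ± 0.10 (adjusted p = 4.04e-09) for the same differences in that order.

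**Figure D3:**
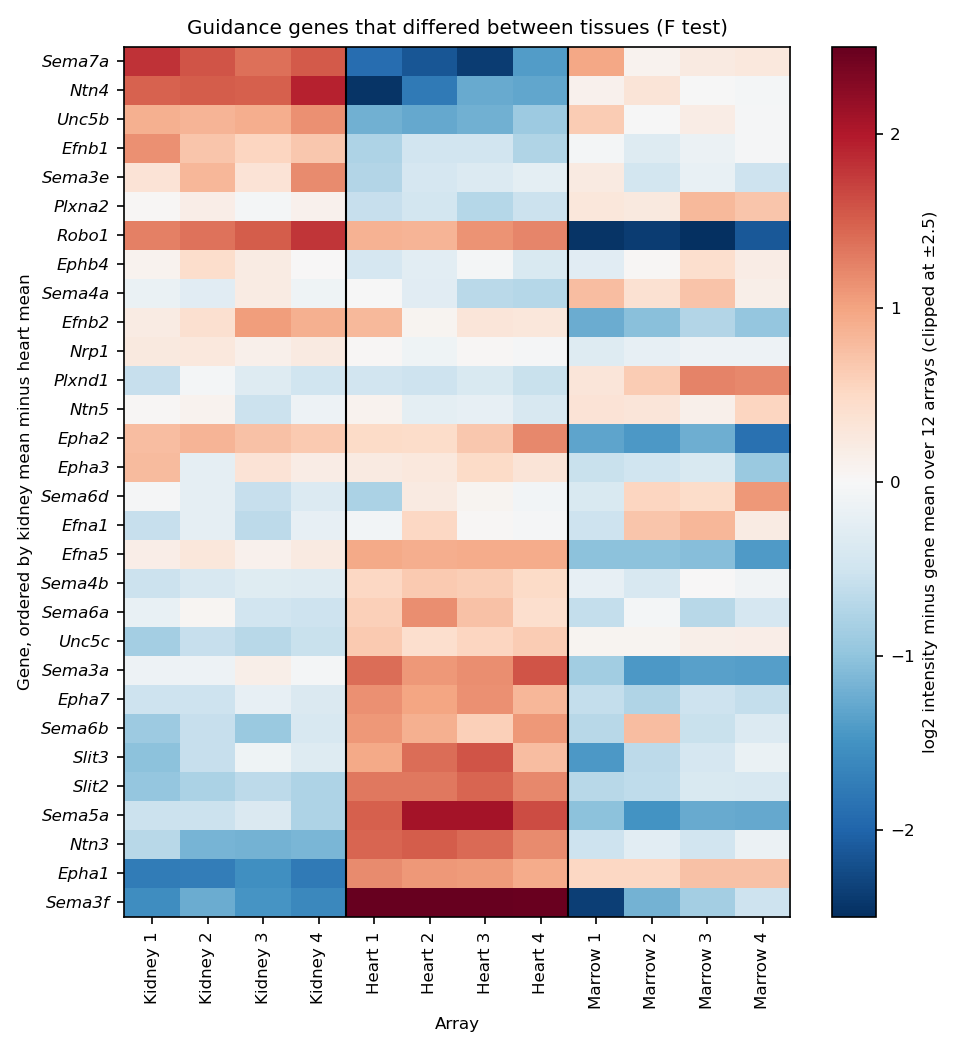
Log2 intensity of the 30 guidance genes called by the F test on each of 12 arrays, as the difference from the gene's mean over all arrays (colour, clipped at ±2.5), with genes ordered by kidney mean minus heart mean. Sema7a, Ntn4 and Unc5b at the top are high on kidney and low on heart arrays, Sema3f, Epha1 and Ntn3 at the bottom show the reverse, and Robo1, Epha2 and Efna5 are low on bone marrow arrays.

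Of the 6 kept ephrins, Efna5 and Efnb2 were higher in both kidney and heart than in bone marrow cells, while Efnb1 was higher in kidney and lower in heart cells. Efna5, which repels axons that carry EphA receptors, was 4.16-fold higher in heart and 2.52-fold higher in kidney than in bone marrow cells. Its values were 11, 11.11, 10.94 and 11.06 in kidney, 11.78, 11.73, 11.76 and 11.75 in heart and 9.81, 9.80, 9.76 and 9.42 in bone marrow cells. The order of tissues was clear, with separate ranges and differences of 2.06 ± 0.09 (adjusted p = 5.12e-14) for heart minus bone marrow, 1.33 ± 0.09 (adjusted p = 1.17e-10) for kidney minus bone marrow and −0.72 ± 0.09 (adjusted p = 8.62e-07) for kidney minus heart. Efnb1, a ligand whose loss disturbs skull and facial skeleton in mice, read 11.56, 11.11, 10.95 and 11.10 in kidney, 9.65, 9.94, 9.93 and 9.66 in heart and 10.36, 10.09, 10.27 and 10.39 in bone marrow cells. It was highest in kidney and lowest in heart cells, at −0.48 ± 0.12 (adjusted p = 0.0015), 0.90 ± 0.12 (adjusted p = 2.64e-06) and 1.39 ± 0.12 (adjusted p = 4.1e-09) for the same differences in that order. Efnb2, the arterial partner of Ephb4, had values of 6.56, 6.75, 7.39 and 7.24 in kidney and 7.16, 6.41, 6.66 and 6.63 in heart cells, against 5.10, 5.31, 5.61 and 5.38 in bone marrow cells, where 0 of 4 arrays detected it. The bone marrow arrays all lay below the other 8. Efnb2 was at least 2.5-fold higher in kidney (adjusted p = 1.6e-06) and at least 2.08-fold higher in heart (adjusted p = 9.12e-06) than in bone marrow cells, and kidney minus heart was 0.27 ± 0.20 (adjusted p = 0.311). Efna1, with a kidney mean under the floor, was at least 1.53-fold lower in kidney than in bone marrow cells (adjusted p = 0.0241). This call was lost without bone marrow replicate 2 or 3 or kidney replicate 1 or 3, with adjusted p of 0.0629 to 0.102. Efna1 was at least 1.34-fold lower in kidney than in heart cells, which was not called (adjusted p = 0.0882, or 0.0265 without bone marrow replicate 1). Efna4 and Efnb3 were not called.

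Among the Eph receptors, Epha1 had the largest fall of any gene in the set in kidney against bone marrow cells. It was 4.96-fold lower in kidney than in bone marrow cells. Epha2, an Eph receptor also found on epithelial cells, was higher in both kidney and heart than in bone marrow cells, and Epha7 was detected in heart cells alone. Epha1 read 5.97, 5.99, 6.18 and 5.94 in kidney cells, 8.90, 8.79, 8.78 and 8.64 in heart cells and 8.22, 8.23, 8.44 and 8.44 in bone marrow cells. All kidney arrays lay below the others and heart arrays slightly above bone marrow arrays, at 0.45 ± 0.12 (adjusted p = 0.00418) for heart minus bone marrow, −2.31 ± 0.12 (adjusted p = 3.23e-12) for kidney minus bone marrow and −2.76 ± 0.12 (adjusted p = 1.42e-13) for kidney minus heart. The Epha2 values were 7.80, 7.88, 7.77 and 7.70 in kidney and 7.52, 7.50, 7.71 and 8.24 in heart cells, against 5.71, 5.61, 5.82 and 5.18 in bone marrow cells, where 2 of 4 arrays detected it. Kidney and heart arrays overlapped and stood clear of bone marrow arrays. Kidney cells were at least 4.24-fold higher (adjusted p = 1.92e-09) and heart cells at least 4.11-fold higher (adjusted p = 1.38e-09) than bone marrow cells, and kidney minus heart was 0.05 ± 0.17 (adjusted p = 0.863). Epha7 had 4.83, 4.83, 5.14 and 4.98 in kidney, 6.48, 6.33, 6.48 and 6.17 in heart and 4.75, 4.59, 4.82 and 4.76 in bone marrow cells. Heart arrays stood above the other 8. The bounds for Epha7 were at least 1.63-fold higher in heart than in bone marrow cells and at least 1.71-fold lower in kidney than in heart cells, again with no test.

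Epha3, a high-affinity receptor of Efna5, had values of 7.19, 6.18, 6.74 and 6.59 in kidney, 6.63, 6.66, 6.89 and 6.72 in heart and 5.85, 5.91, 6.03 and 5.47 in bone marrow cells. It was higher in both other tissues than in bone marrow cells, by 0.92 ± 0.19 (adjusted p = 0.000434) in heart and 0.86 ± 0.19 (adjusted p = 0.00118) in kidney cells. Kidney minus heart was −0.05 ± 0.19 (adjusted p = 0.858). Other entries of this identifier differed in size. One was at least 3.07-fold higher in heart and 1.69-fold higher in kidney than in bone marrow cells, with kidney minus heart at −0.86 (adjusted p = 0.000101). Another, at 0.45 and 0.30 over bone marrow cells, was not called. Ephb4, the venous receptor of Efnb2 and the one EphB receptor kept, had 10.88, 11.23, 10.99 and 10.81 in kidney, 10.38, 10.53, 10.75 and 10.42 in heart and 10.52, 10.83, 11.22 and 10.97 in bone marrow cells. Heart cells were lowest, at −0.36 ± 0.12 (adjusted p = 0.0192) against bone marrow cells, and kidney minus heart was 0.46 ± 0.12 (adjusted p = 0.00515), while kidney minus bone marrow was 0.09 ± 0.12 (adjusted p = 0.598). The fall in heart cells was not called without bone marrow replicate 3 or heart replicate 1 or 4, at −0.25 to −0.33 with adjusted p of 0.0557 to 0.0952. Epha4 and Epha8 were not called.

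Plexins and neuropilins are the semaphorin receptors, and 2 of 5 kept plexins and 1 of 2 neuropilins were called by the F test, beside 67.9% of all genes. Plxnd1, the Sema3e receptor needed for vessel patterning, was 2.52-fold lower in heart and 2.31-fold lower in kidney than in bone marrow cells. Plxna2, a plexin of secreted and class 6 semaphorins, was lower too. Plxnd1 log2 intensities were 8.76, 9.27, 9 and 8.84 in kidney and 8.85, 8.81, 8.94 and 8.78 in heart cells, against 9.63, 9.96, 10.57 and 10.53 in bone marrow cells. All bone marrow arrays lay above the other 8, at −1.33 ± 0.16 (adjusted p = 6.81e-07) for heart minus bone marrow and −1.21 ± 0.16 (adjusted p = 4.73e-06) for kidney minus bone marrow, while kidney cells differed from heart cells by 0.13 ± 0.16 (adjusted p = 0.573). Plxna2 had 8.96, 9.10, 8.89 and 9.05 in kidney, 8.36, 8.48, 8.22 and 8.39 in heart and 9.21, 9.17, 9.75 and 9.63 in bone marrow cells. Separate ranges put bone marrow cells highest and heart cells lowest, at −1.08 ± 0.13 (adjusted p = 3.37e-07), −0.44 ± 0.13 (adjusted p = 0.00828) and 0.64 ± 0.13 (adjusted p = 0.00027) for heart over bone marrow, kidney over bone marrow and kidney over heart. These Plxna2 values come from a repeated entry of an identifier. The first entry of that identifier, and a probe with another identifier, were detected on 0 arrays. Plxnb1, Plxnb2 and Plxnc1 were not called in any of the 3 comparisons. For Plxnb2, leaving out bone marrow replicate 4 gave 0.30 for heart minus bone marrow (adjusted p = 0.0457) and 0.33 for kidney minus bone marrow (adjusted p = 0.0364), against 0.15 ± 0.14 (adjusted p = 0.415) and 0.18 ± 0.14 (adjusted p = 0.338) with all arrays.

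Nrp1, the co-receptor of Sema3a and of Vegfa, changed little on its brightest probe. That probe read 13.18, 13.20, 13.07 and 13.17 in kidney, 12.97, 12.84, 12.97 and 12.91 in heart and 12.62, 12.74, 12.82 and 12.82 in bone marrow cells. These small steps were called, at 0.17 ± 0.07 (adjusted p = 0.0355) for heart minus bone marrow, 0.41 ± 0.07 (adjusted p = 5.2e-05) for kidney minus bone marrow and 0.23 ± 0.07 (adjusted p = 0.00725) for kidney minus heart. The step in heart cells was lost on leaving out any of 5 single arrays (bone marrow replicates 1 and 2, heart replicates 1, 3 and 4), with adjusted p up to 0.106. A further Nrp1 probe, with another identifier and detected on all 12 arrays, was called the other way, at −0.83 for heart minus bone marrow (adjusted p = 0.000205). On it, kidney minus heart was larger, at 1.15 (adjusted p = 6.3e-06), and kidney minus bone marrow was 0.32 (adjusted p = 0.133). The size of the Nrp1 differences thus depends on the probe. Nrp2 was not called. The unrelated gene annotated Nrp had 7.85, 7.40, 7.79 and 7.86 in kidney, 7.17, 7.19, 6.96 and 7.09 in heart and 7.71, 7.68, 7.89 and 7.65 in bone marrow cells, with heart minus bone marrow at −0.63 ± 0.13 (adjusted p = 0.00049) and kidney minus heart at 0.62 ± 0.13 (adjusted p = 0.000682).

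Of the 44 genes, 22 had more than 1 kept probe, which gives further readings of the same RNA on the same arrays. For heart minus bone marrow, 17 of these genes were called, and of their 28 further probes 22 were called the same way, 5 were not called and 1, for Nrp1, was called the other way. In kidney minus bone marrow, 13 of 21 further probes of 12 called genes were called the same way and 0 the other way. In kidney minus heart, 22 of 25 further probes of 15 called genes were called the same way and 0 the other way. Some further probes passed detection only with the arrays of 1 tissue, which fixes their direction. Without these, the same way held for 15 of 19 further probes in heart minus bone marrow (1 the other way), 11 of 14 in kidney minus bone marrow and 14 of 17 in kidney minus heart. For Slit2, 3 of the 4 further kept probes were detected on heart arrays alone, and the fourth, detected on all 12 arrays, gave 2.20 for heart minus bone marrow. For Sema5a, 1 dim probe showed almost no difference (−0.01 for heart minus bone marrow) beside another probe at 2.89. Where the brightest probe was not called, a further one was called for Sema3b and Sema4f in heart minus bone marrow, for Sema6b in kidney minus bone marrow, and for Epha3, Sema3b and Sema4f in kidney minus heart. The further Sema4f probe was detected on heart arrays alone, so its direction was fixed by the criterion.

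**Figure D4:**
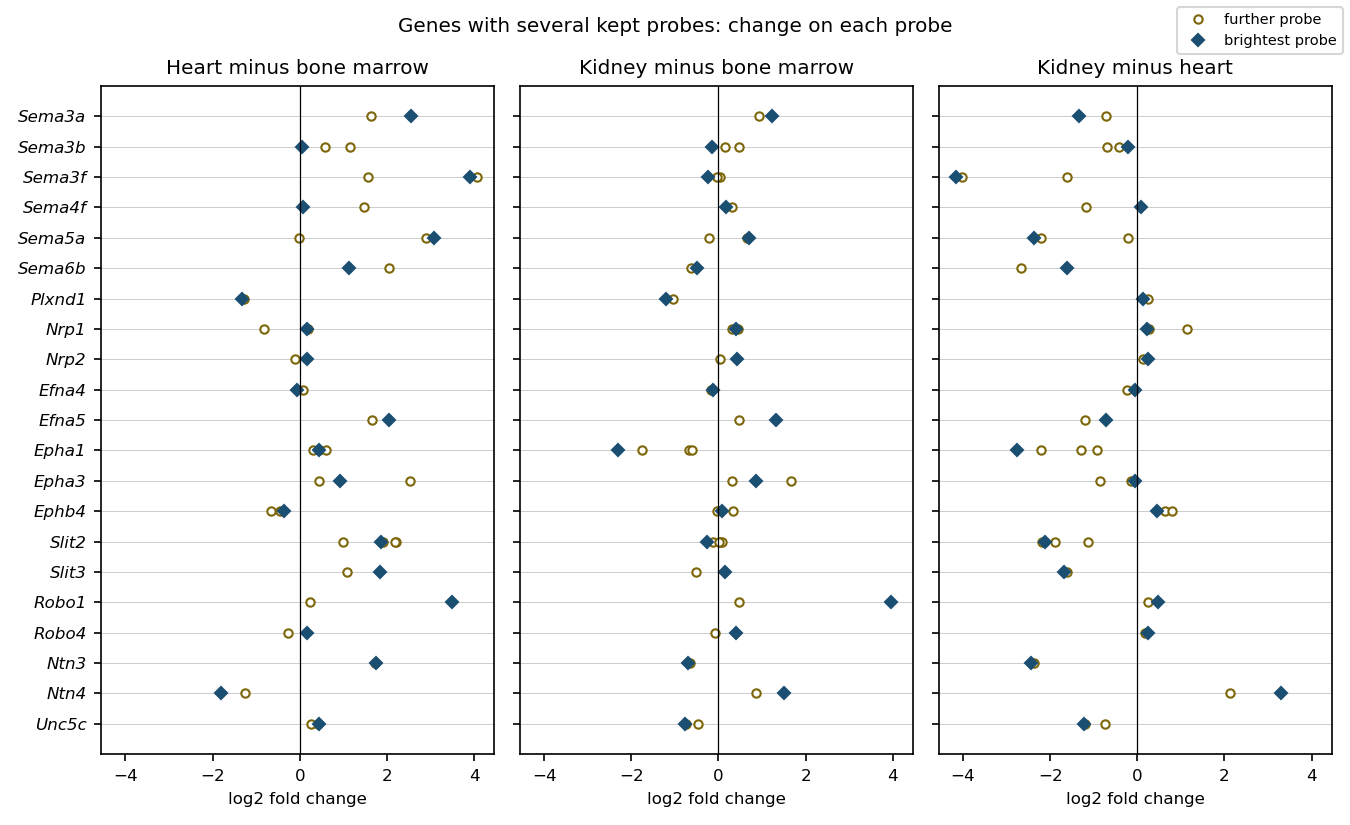
Log2 fold change on the brightest probe (diamond) and on every further kept probe (open circle) of the 21 guidance genes with several kept probes, in 3 comparisons. Probes of Slit2, Ntn3, Ntn4, Plxnd1 and Sema3f, some of them kept through heart arrays alone, lie on one side of 0 for heart minus bone marrow, while Nrp1 has probes on both sides and the second Robo1 probe lies near 0.

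Other ligands and receptors of the same signalling systems were read from a list of 15 genes, of which 13 were kept. In heart cells 5 were higher (38.5%) and 1 lower (7.69%) than in bone marrow cells, beside 26.2% and 29.4% of all genes. In kidney cells 4 were higher (30.8%) and 0 lower than in bone marrow cells, beside 19.6% and 23.8%, and 2 were higher (15.4%) and 4 lower (30.8%) in kidney than in heart cells, beside 24.5% and 23.9%. Flrt2, a membrane ligand of Unc5 receptors, averaged 10.45 ± 0.15 in kidney, 11.04 ± 0.15 in heart and 7.86 ± 0.35 in bone marrow cells (SD, n = 4 each). It was 9.06-fold higher in heart and 6.04-fold higher in kidney than in bone marrow cells, at 3.18 ± 0.14 (adjusted p = 4.63e-14) and 2.59 ± 0.14 (adjusted p = 2.64e-12). Nrcam, an adhesion protein that joins neuropilins in semaphorin receptors, was 7.36-fold higher in heart and 3.49-fold higher in kidney than in bone marrow cells. Neo1, the netrin and Rgm receptor neogenin, was highest in kidney cells, at 1.16 ± 0.07 (adjusted p = 2.7e-11) for kidney minus bone marrow and 0.15 ± 0.07 (adjusted p = 0.0772) for heart minus bone marrow. Rgma, a ligand of neogenin, was highest in heart cells, at 1.71 ± 0.22 (adjusted p = 1.01e-06) for heart minus bone marrow and −1.88 ± 0.22 (adjusted p = 4.06e-07) for kidney minus heart. Dcc, the attractive netrin receptor, was not called.

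Intracellular effectors downstream of these receptors came from a list of 54 genes, of which 41 were kept. In heart cells 12 were higher and 12 lower than in bone marrow cells (29.3% each), close to the 26.2% and 29.4% of all genes. In kidney cells 15 were higher (36.6%) and 9 lower (22%) than in bone marrow cells, beside 19.6% and 23.8% of all genes, and 14 were higher (34.1%) and 11 lower (26.8%) in kidney than in heart cells, beside 24.5% and 23.9%. Pak3, a Rac-activated kinase, was 4.08-fold lower in kidney than in heart cells, with means of 10.15 ± 0.13 in kidney, 12.18 ± 0.11 in heart and 11.29 ± 0.14 in bone marrow cells (SD, n = 4 each). Crmp1, a semaphorin response protein, was detected on the 4 bone marrow arrays and no other, so it is described without a test: it was at least 1.69-fold lower in heart and at least 1.7-fold lower in kidney than in bone marrow cells. Dpysl4, of the same protein family, was detected on 0 bone marrow arrays and was at least 2.95-fold higher in heart than in bone marrow cells (adjusted p = 4.34e-09). Ngef, the exchange factor ephexin that acts below EphA receptors, was at least 2.42-fold higher in heart than in bone marrow cells. It passed detection only with the heart arrays, so it too is described without a test. Rgs3, which acts below ephrin-B ligands, was also higher in heart than in bone marrow cells, by 1.34 ± 0.14 (adjusted p = 4.87e-08). In the other direction, Vav3 was 3.65-fold lower in heart (adjusted p = 9.56e-10) and 2.67-fold lower in kidney (adjusted p = 1.16e-07) than in bone marrow cells. Tiam2 was 2.08-fold lower in heart than in bone marrow cells (adjusted p = 6.17e-07).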

How the data were processed

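Gene expression was measured in 12 samples, 4 per tissue. The deposited raw table holds, per the file headers, non-normalised probe intensity for each array, with a detection fraction that is 1 for bright probes and was read as 1 minus a detection p-value. Its 45281 entries carry 35746 identifiers, 6798 of them repeated, and all entries were treated as separate probes. The authors' processed intensity was deposited beside it for 35739 identifiers, made with lumi per the submitters' processing notes, which give no settings here. Its scale is linear, its centring is a common median of 18.8 to 19, and the offset behind it stays unknown. It served as an alternative. For all 6791 repeated identifiers it holds, its values lay nearest to the first entry. In the platform annotation, 26385 identifiers have 1 symbol, 18 several and 9343 are not listed.

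Background correction and quantile normalisation used neqc (offset 16) of limma 3.58.1 in R 4.3.3, then log2. Probes detected on at least 4 arrays entered 1 fit with a mean per tissue (lmFit, eBayes with trend), and p-values are two-sided and Benjamini-Hochberg adjusted over all 20649 kept probes. The kept probe with the highest mean stands for a gene. A lower bound replaces a fold change where the dimmer tissue had 0 detected arrays or a mean below the mean detection floor, and sets the brighter mean against the higher of floor and probe value on each dim array. Genes are called higher or lower at an adjusted p under 0.05. Every member was open to naming, and array values are given for those called without overlap. From the lists of other receptors and effectors, some of the genes called at 2-fold or more were named, with Dcc added after its values were seen. The members and lists were chosen with earlier results of these data known. Alternatives were an offset of 50, no background correction, no detection filter, the authors' table, the mean of a gene's probes, 1 probe per gene, detection on all arrays, eBayes without trend, a replicate block and leaving out each array. The fit was tested on simulated data. The number of arrays limits the precision. No pair of arrays within a tissue shared more than 0.283% of raw values.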

Additional observations from a re-analysis of the deposited data

Results flagged for a closer look

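Each of the 44 genes was checked on the 4 arrays of each tissue for 1 array far from the others, by the gap to its nearest neighbour as a share of the range, against Dixon's critical value for 4 values. This marked 11 of 132 groups, and chance marks about 1 in 20. In kidney cells, Ntn3 read 6.91 on replicate 1 beside 6.42 to 6.46 on the others, Ntn4 read 9.37 on replicate 4 beside 8.92 to 8.96, Robo4 read 5.32 on replicate 2 beside 5.91 to 6.02, and the gene annotated Nrp read 7.40 on replicate 2 beside 7.79 to 7.86. In heart cells, 3 genes stood apart on replicate 2: Efna1 at 6.52 beside 5.94 to 6.02, Epha4 at 6.51 beside 5.41 to 5.58, and Sema4f at 5.74 beside 5.99 to 6.03. In bone marrow cells, Sema3a read 9.22 on replicate 1 beside 8.67 to 8.74, and Efna5 read 9.42 on replicate 4 beside 9.76 to 9.81. On bone marrow replicate 3, Efnb3 read 5.73 beside 6.04 to 6.10 and Nrp2 read 5.41 beside 6.19 to 6.31.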

How the results depend on the processing

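Of 132 comparisons of a gene between tissues, 73 were called, 8 of these were lost and 10 others gained on leaving out at least 1 array. An offset of 50, no background correction and 1 probe per gene left all 132 on the same side of the threshold and in the same direction, and detection on all arrays did so for the 75 it could compare. Without the detection filter 3 calls were lost, and without the trend 4 were lost and 1 gained. The mean of a gene's kept probes gained 6 calls, lost 1 and turned 2 directions, and the authors' table lost 3 and turned 3 of 87. With the first entry of each identifier, an alternative chosen after seeing the data, 114 of the 132 comparisons could be made. Of these, 113 kept their side and 1, Epha3 in kidney minus heart, was gained at −0.86. Genes without a kept first entry dropped out, among them Plxna2, Epha7, Ntng1 and Plxnc1. Their results rest on repeated entries alone. The authors' table held 29 of the genes, and its counts that moved most are given here. Main counts for these 29 genes alone are not given, so a lower count can reflect missing genes. The authors' table gave 8 higher for heart minus bone marrow, 7 of them at least 2-fold. In the same comparison 3 genes were at least 2-fold lower. For kidney minus bone marrow it gave 8 higher and 5 lower, with 1 at least 2-fold lower. For kidney minus heart it gave 6 lower, 4 of them at least 2-fold. With the 25 genes detected on all arrays, 8 were at least 2-fold higher in heart and 4 in kidney than in bone marrow cells, again with no background share for such genes. Without background correction, 3 genes were at least 2-fold lower in heart minus bone marrow and 7 in kidney minus heart. Leaving out each array in turn gave 17 to 19 higher and 8 to 11 lower for heart minus bone marrow, 13 to 14 and 5 to 11 for kidney minus bone marrow (5 without bone marrow replicate 3), and 9 to 10 and 13 to 14 for kidney minus heart. At 2-fold these ranges were 12 to 13 and 4 to 6, 7 to 8 and 2 to 2, and 4 to 5 and 10 to 11. Directions turned for Nrp1 in heart minus bone marrow, at −0.84 in the authors' table, which holds another probe, and −0.16 with the mean of its probes. They also turned for Sema4f in kidney minus heart, at −0.54 with the mean of its probes, and for Sema5a in the authors' table, which holds its dim probe, at −0.01 for heart minus bone marrow and −0.22 for kidney minus bone marrow. The replicate numbers showed no sign of pairing, though this cannot exclude it. Deviations of same-numbered arrays correlated at −0.18 to 0.123, and those of differently numbered arrays at −0.179 to 0.161. With the replicate number as a block the counts were 17 higher and 10 lower for heart minus bone marrow, 13 and 9 for kidney minus bone marrow and 10 and 13 for kidney minus heart, and the lost call was Nrp1 in heart minus bone marrow. Genes near the detection floor, such as Sema3e, Sema6a, Epha7 and Efnb2, have bounds and no measured fold change.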
